A study of Mus musculus with 2 samples.

Results

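Hbegf and the PDGF ligands Pdgfa, Pdgfb and Pdgfd are growth factor genes through which the lung endothelium signals to neighbouring cells, and they were followed here in single endothelial cells of control and metastatic lungs. The members are these 4 genes of the 31053 genes listed, found by symbol in the feature table. They were chosen because of their measured difference between the metastatic and the control library, so the ratios between those libraries describe how they were picked and are given without a test. Lung cells were sorted 6 h after a tail vein injection into wild-type C57BL/6 mice, which the study's methods describe as young adult males. The control group received PBS and the metastatic group received 200000 cells of B16-F10, a mouse melanoma line that colonises the lungs when it enters the blood. Each group was 1 library of cells pooled from 2 mice, sorted as positive for PECAM1, the platelet and endothelial adhesion molecule CD31, with no gate against leukocytes. There was therefore no replicate, no test between the groups was possible, and the lung response cannot be told apart from a difference between these libraries.

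HBEGF is made as a membrane-bound precursor that metalloproteases release, after which it binds the ErbB receptors EGFR and ERBB4. PDGF ligands act as dimers on the receptor tyrosine kinases PDGFRA and PDGFRB. PDGF-A acts through PDGFRA, which marks fibroblasts in the lung, whereas PDGF-B from endothelial cells recruits pericytes through PDGFRB. PDGF-D also acts through PDGFRB, and is made in a latent form that proteases such as urokinase cut.

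The libraries held 67929614 and 64733724 unique molecular identifiers (UMIs, each counting 1 captured mRNA) in the control and the metastatic lungs. Barcodes with 1000 to 5000 genes and under 20% mitochondrial UMIs were kept as cells, which left 7134 and 6466 cells with medians of 6273 and 6527 UMIs. Of these, 16 barcodes occurred in both libraries, where 6.79 would be shared by unrelated libraries. Cells were classed by marker genes into general capillary cells (gCap, 5020 in control and 4519 in metastatic lungs), aerocytes (1364 and 1086), veins (247 and 304) and arteries (63 and 59). Another 213 and 268 cells carried at least 3 of 5 pan-endothelial markers but met no class rule, and are called endothelial cells without a class. With the cells that met several class rules, all endothelial cells numbered 6953 and 6268. The endothelial label held in gCap cells, which carried on average 4.61 and 4.62 of the 5 pan-endothelial markers. Their summed level of melanoma markers was 1.81 and 2.31 CPM (UMIs per 1000000 UMIs of the class), and 0 of those 4 genes were at 0. Levels below are CPM within a class, with 95% intervals that cover counting error only.

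The letters upstream of the transcription start were available for 2 of the 4 members, Pdgfa and Pdgfd, in RefSeq promoter windows (build GRCm38.p6) that reach from 250 bases before a start to 50 after it. They are shown because no other member had a window. Of the PDGF members they also stood farthest apart in gCap cells, Pdgfa with the highest and Pdgfd with the lowest ratio between the libraries. Both genes lie on different chromosomes, and RefSeq gives windows for 2 start sites of Pdgfa. The Pdgfa windows are chr5:138994232-138994531 and chr5:138994895-138995194 on the minus strand, and the Pdgfd window is chr9:6168236-6168535 on the plus strand. Capitals mark GGGCGG, the Sp1 motif, wherever it occurred on either strand, and TATAAA, the letters of the TATA box, wherever they occurred on either strand.
Pdgfa window 1: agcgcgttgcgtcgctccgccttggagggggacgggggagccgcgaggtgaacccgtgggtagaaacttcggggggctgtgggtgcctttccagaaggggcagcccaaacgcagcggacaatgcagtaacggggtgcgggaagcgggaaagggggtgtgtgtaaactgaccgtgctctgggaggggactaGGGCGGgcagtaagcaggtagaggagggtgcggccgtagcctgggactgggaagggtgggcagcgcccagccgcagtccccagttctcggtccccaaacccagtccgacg
Pdgfa window 2: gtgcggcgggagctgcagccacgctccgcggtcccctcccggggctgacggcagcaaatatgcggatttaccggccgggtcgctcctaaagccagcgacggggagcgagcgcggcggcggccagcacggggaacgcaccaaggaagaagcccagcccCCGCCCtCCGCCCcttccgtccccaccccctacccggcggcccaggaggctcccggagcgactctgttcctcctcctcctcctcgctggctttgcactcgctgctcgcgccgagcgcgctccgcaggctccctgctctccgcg
Pdgfd: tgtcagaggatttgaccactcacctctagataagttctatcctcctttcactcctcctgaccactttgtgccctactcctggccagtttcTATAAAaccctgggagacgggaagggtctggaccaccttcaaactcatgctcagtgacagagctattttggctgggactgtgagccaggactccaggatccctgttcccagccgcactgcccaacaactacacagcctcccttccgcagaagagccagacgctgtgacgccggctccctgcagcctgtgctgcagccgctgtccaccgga
The Pdgfa windows were 67% and 73.3% G or C and the Pdgfd window 56.7%, against a median of 52.7% over 32851 promoter windows of the same length. GGGCGG occurred 1 time and 2 times in the Pdgfa windows and was not found in that of Pdgfd, and 35.7% of all windows held it. TATAAA occurred 1 time, in the Pdgfd window at −160 from the start, and anywhere in the window in 13.6% of all windows. TGANTCA, the AP-1 motif, matched none of these windows and 7.81% of all. These matches describe letters within the windows and were not linked to any binding.

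UMIs of all 4 ligands were counted in both capillary types, in different proportions. However, Hbegf and Pdgfa of aerocytes in both libraries, and of control gCap cells, lay below their levels in free RNA, given further on. In gCap cells of the control lungs, Pdgfb was the most abundant by UMIs, with 134 CPM (130.3–138.3), followed by Hbegf with 39.3 CPM (37.2–41.6), Pdgfa with 23.2 CPM (21.6–24.9) and Pdgfd with 22.7 CPM (21.1–24.4). These are 3′ tag counts, so transcript length does not enter the levels. In the metastatic lungs the gCap levels were 188 CPM for Pdgfb (182.7–192.5), 80.1 for Hbegf (77.0–83.4), 57.6 for Pdgfa (54.9–60.3) and 23.7 for Pdgfd (22.03–25.54). Pdgfa and Hbegf thus stood 2.48-fold and 2.04-fold higher in the metastatic library, Pdgfb 1.40-fold higher, and Pdgfd did not differ beyond its counting interval. Of the 4 members, 2 exceeded a 2-fold ratio in gCap cells, compared with 1.27% of the 12165 genes with at least 50 UMIs that were 2-fold or more higher and 0.559% that were as much lower. The counting interval lay above 0 for 3 of the 4, whereas it did so for 23.8% of all these genes and lay below 0 for 15.7%. Since this contrast chose the members, the counts carry no further weight.

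**Figure D1:**
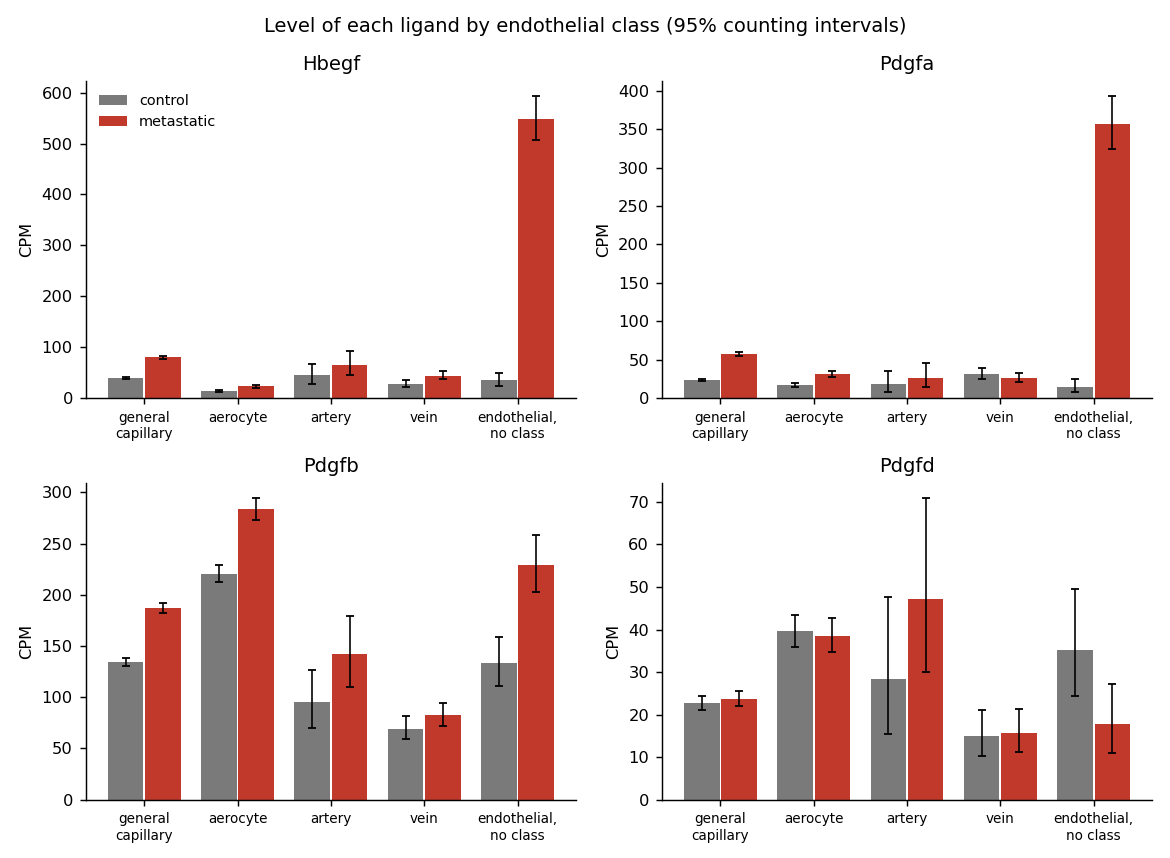
Level of each ligand in CPM by endothelial class in the control (grey) and the metastatic (red) library, with 1 library per bar and 95% counting intervals as error bars. In endothelial cells without a class, Hbegf was at 35.3 and 549 CPM and Pdgfa at 15.0 and 357 CPM, far above the other classes of the metastatic library, whereas Pdgfb was highest in aerocytes and Pdgfd changed little in the capillaries. Most cells without a class held no UMI of Hbegf or of Pdgfa.

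Hbegf, the only ErbB ligand with appreciable RNA in these cells, is a gene of 6 exons at most among its 3 annotated transcripts (chromosome 18, 36504927 to 36515805, minus strand, GRCm38). Its log2 ratio of the metastatic to the control library was 1.03 in gCap cells (0.93–1.13), from 1263 and 2427 UMIs. It fell below 2-fold with 3 class markers (0.78), with thinning to 2000 UMIs (0.93) and with median-of-ratios scaling (0.99), with every interval above 0. Aerocytes held less, with 14.3 CPM (12.2–16.7) in control and 23.1 (20.1–26.4) in metastatic lungs and a log2 ratio of 0.69 (0.39–1.00). Thinned to 2000 UMIs that ratio was 0.40 (−0.25 to 1.06), and subtracting free RNA, at 68.6% of the control aerocyte UMIs, left no Hbegf in control aerocytes. Veins had 27.2 and 44.1 CPM, a log2 ratio of 0.70 (0.24–1.17), which became 0.65 (−0.33 to 1.69) when thinned. The 3 monocyte and macrophage markers moved with it, from 30.8 to 611 CPM in veins, of which Lyz2 was 26.7 and 592 CPM. In the 197 and 232 vein cells without a UMI of those markers, Hbegf was at 27.4 and 46.9 CPM, a ratio of 0.77 (0.25–1.31). Arteries had 44.6 and 65.8 CPM, from only 22 and 32 UMIs, and their log2 ratio of 0.56 (−0.27 to 1.41) did not differ from 0 beyond counting error. In both libraries arteries and gCap cells had the highest levels, then veins, then aerocytes. Arteries and gCap cells did not differ from each other beyond their intervals in either library, nor did arteries and veins of the metastatic lungs, and those of the control lungs were not compared.

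Pdgfa, whose product forms the PDGF-AA dimer, has 7 annotated transcripts on chromosome 5 (138976014 to 138997370, minus strand). Its gCap UMIs numbered 745 and 1744, a log2 ratio of 1.31 (1.19–1.44), the 65th highest of the 12165 genes, while Hbegf was 143rd. In aerocytes Pdgfa had 17.0 CPM (14.6–19.5) in control and 31.3 (27.8–35.1) in metastatic lungs, a log2 ratio of 0.89 (0.62–1.16), but subtracting free RNA left none in control aerocytes. Veins showed no such difference, with 31.3 and 26.2 CPM and a log2 ratio of −0.26 (−0.76 to 0.24). The order of the classes therefore differed between the libraries. In the control lungs veins stood above gCap cells by 0.43 on the log2 scale (0.05–0.79), and in the metastatic lungs gCap cells stood above aerocytes by 0.88 (0.70–1.06), with aerocytes, arteries and veins within their intervals of each other. Apart from gCap cells of the metastatic lungs, all these levels lay below Pdgfa in free RNA, at 50.3 CPM in control and 45.3 CPM in metastatic lungs. The order among those classes could therefore not be separated from free RNA. Arteries had only 9 and 13 Pdgfa UMIs, which leaves their level between 8.35 and 45.7 CPM over both libraries.

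Pdgfb, the pericyte-recruiting ligand, lies on chromosome 15 (79995874 to 80014977, minus strand) and was detected in more cells than any other member. Aerocytes held most, with 221 CPM (212.1–229.5) in control and 284 CPM (272.9–294.6) in metastatic lungs, and gCap cells followed with 134 and 188 CPM. Aerocytes exceeded gCap cells in each library, by 0.72 (0.65–0.79) and 0.60 (0.53–0.66) on the log2 scale. Arteries had 95.3 and 142 CPM and veins 69.4 and 82.6 CPM, so veins were last in both libraries, though not apart from arteries in the control. The log2 ratio between the libraries was 0.48 (0.42–0.54) in gCap cells, 0.36 (0.28–0.44) in aerocytes, 0.57 (0.02–1.14) in arteries and 0.25 (−0.05 to 0.56) in veins. It was thus higher in the metastatic lungs in 3 of the 4 classes beyond counting error, by less than 2-fold in each. The artery ratio was at that limit, and with TMM scaling it was 0.52 (−0.03 to 1.09). The artery class also differed between the libraries in its lymphatic markers, at 2.03 and 1480 CPM, most of it Ccl21a at 1322 CPM, beside artery markers at 698 and 557 CPM. Its monocyte and macrophage markers were at 24.3 and 273 CPM and its mural markers at 87.2 and 4.11 CPM. Without the 1 and 3 cells that held a lymphatic marker UMI, the Pdgfb ratio was 0.57 (−0.0027 to 1.15), no longer beyond counting error. With free RNA subtracted, at 68.6% of the control and 27.4% of the metastatic aerocyte UMIs, the aerocyte ratio was −0.16. Single genes put the control share anywhere from 3.38% to 134.9%, so this ratio rests on an uncertain share.

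Pdgfd, the latent PDGFRB ligand, lies on chromosome 9 (6168584 to 6378850, plus strand) and was close to level between the libraries. Aerocytes had 39.6 CPM (36.0–43.4) and 38.6 CPM (34.7–42.8), a log2 ratio of −0.04 (−0.24 to 0.17), and gCap cells a ratio of 0.06 (−0.09 to 0.21). These intervals leave differences of up to 0.24 on the log2 scale in either capillary type. Aerocytes exceeded gCap cells in the metastatic lungs by 0.70 (0.51–0.88). Veins had least, at 15.0 and 15.7 CPM, and arteries reached 28.4 and 47.3 CPM from 14 and 23 UMIs. Pdgfd thus stood higher in aerocytes than in gCap cells, as Pdgfb did. Arteries were not apart from aerocytes in either library, and ranked first in the metastatic lungs. Pdgfd also shared the gCap level of Pdgfa in control lungs, but not the higher level of Pdgfb and Pdgfa in metastatic lungs.

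Outside gCap cells, none of the members passed a 2-fold ratio in the named classes. The count was 0 of 4 in aerocytes, where 1.09% of 10464 genes were 2-fold or more higher and 0.373% lower, and 0 of 4 in veins, where 1.94% and 0.376% of 8241 genes were. Only 2 of the members, Hbegf and Pdgfb, had 50 UMIs in arteries, where 1.22% and 0.989% of 3539 genes passed that ratio and neither member did. The median log2 ratio of all genes was 0.02 in gCap cells and 0.03 in aerocytes.

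The endothelial cells without a class stood apart from all of these. They were shallower, with medians of 3562 and 3230 UMIs in control and metastatic lungs, against 5951 and 6275 in gCap cells. The part of depth in their missing a class was not tested. Hbegf was at 35.3 CPM in the 213 such cells of control lungs and at 549 CPM (507.6–593.1) in the 268 of metastatic lungs, a log2 ratio of 3.96 (3.46–4.51) from 33 and 647 UMIs. Pdgfa was at 15.0 and 357 CPM (324.0–393.1), a log2 ratio of 4.58, from 14 and 421 UMIs. These UMIs sat in few cells. Of the 268 metastatic cells, 199 held no Hbegf, 10 held at least 20 UMIs of it and the highest count was 87. For Pdgfa, 218 held none, 5 held at least 20 UMIs and the highest count was 126. The counting intervals therefore understate the error of these levels. Pdgfb was at 134 and 229 CPM, with a log2 ratio of 0.78, and Pdgfd moved the other way, from 35.3 to 17.8 CPM (33 and 21 UMIs, log2 ratio −0.98, −1.85 to −0.15). The cells of no type at all, 64 in control and 71 in metastatic lungs, showed the same for 2 ligands, with Hbegf at 17.3 and 232 CPM and Pdgfa at 23.1 and 183 CPM. Markers of other cell types were high in the endothelial cells without a class and some moved with these levels. Monocyte and macrophage markers summed to 1474 and 2641 CPM, against 326 and 212 in gCap cells, epithelial markers to 32.1 and 73.8, platelet markers to 765 and 689 and neutrophil markers to 582 and 177 CPM. In the 161 and 202 cells without a UMI of a monocyte or macrophage marker, Hbegf was at 44.2 and 666 CPM (log2 ratio 3.92, 3.37–4.52) and Pdgfa had 4 and 301 UMIs. The part of the other markers was not tested. Over all endothelial cells the log2 ratios were 1.25 for Hbegf, 1.39 for Pdgfa, 0.41 for Pdgfb and −0.02 for Pdgfd.

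The UMIs of Hbegf and Pdgfa were unevenly spread over the cells of the metastatic lungs. The highest Hbegf count in an endothelial cell was 13 UMIs in the control and 87 in the metastatic library. Cells with at least 10 Hbegf UMIs numbered 3 of 6953 and 43 of 6268, and those with at least 20 numbered 0 and 26. For Pdgfa the highest counts were 33 and 126 UMIs, and 1 control cell and 34 metastatic cells had at least 10. Pdgfb had at least 10 UMIs in 7 and 34 cells, but at least 20 in only 1 control cell, with 37, and in no metastatic cell, where the highest count was 19. No cell held more than 4 UMIs of Pdgfd in either library. Very high counts of Hbegf and Pdgfa were thus found almost only in the metastatic library, with the control cell of 33 Pdgfa UMIs as the exception.

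**Figure D2:**
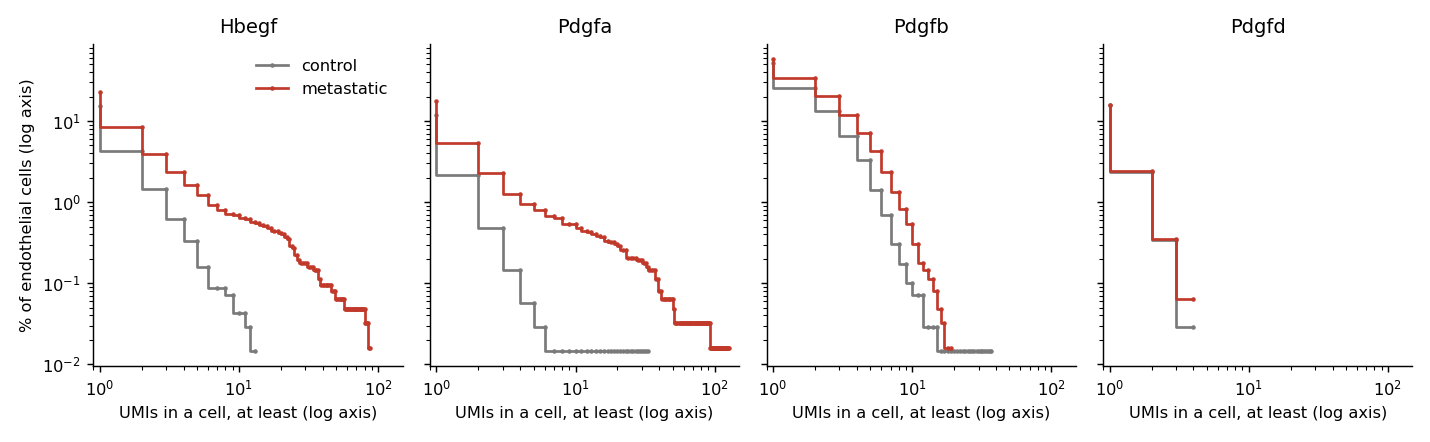
Percent of all endothelial cells (log axis) that held at least the given number of UMIs of each ligand (log axis), in the control (grey) and the metastatic (red) library. For Hbegf and Pdgfa the metastatic curves run out to 87 and 126 UMIs, beyond the control curves, whereas the Pdgfb curves run close to parallel and the Pdgfd curves nearly coincide.

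In gCap cells, the 1% of cells with most Hbegf held 18.1% of all Hbegf UMIs in control lungs (50 cells) and 30.1% in metastatic lungs (45 cells). For Pdgfa the shares were 20.7% and 41.7%, for Pdgfb 7.59% and 7.11%, and for Pdgfd 15.1% and 13.8%. Without those cells in each library, Hbegf was at 32.7 and 56.8 CPM, a log2 ratio of 0.80 (0.68–0.91), and Pdgfa at 18.7 and 34.0 CPM, a ratio of 0.87 (0.72–1.01). Both ratios fell below 2-fold and stayed above 0, while those of Pdgfb (0.49) and Pdgfd (0.09) hardly moved. Over all endothelial cells, leaving out the top 1% brought Hbegf to 0.88 (0.78–0.99) and Pdgfa to 0.88 (0.75–1.00). A part of the difference between the libraries thus lay in the cells with most UMIs, and a smaller difference remained in the other cells. The cells left out were ranked on the ligand's own UMIs, with at least 3 Hbegf UMIs in control and 6 in metastatic gCap cells. This cannot tell a separate set of cells from a gradual spread of counts. Because the UMIs sit in few cells, the counting intervals understate the error of the Hbegf and Pdgfa levels.

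**Figure D3:**
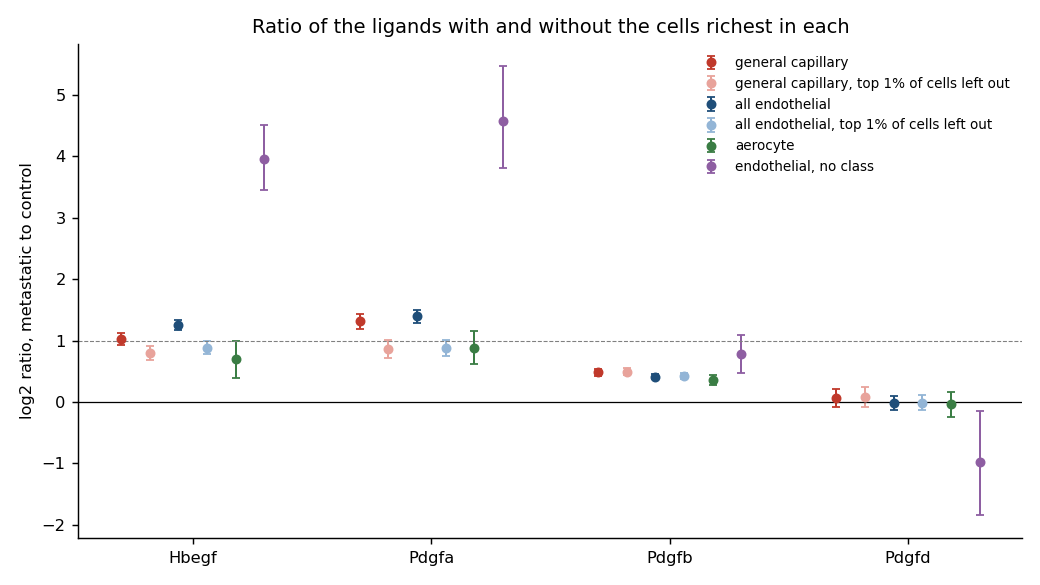
Log2 ratio of the metastatic to the control library for each ligand in gCap cells, all endothelial cells, aerocytes and endothelial cells without a class, with 95% counting intervals, and the dashed line marking a 2-fold ratio. Leaving out the 1% of cells richest in a ligand brings Hbegf in gCap cells from 1.03 to 0.80 and Pdgfa from 1.31 to 0.87, and the cells without a class reach 3.96 and 4.58.

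The share of cells with any UMI of a ligand was compared as well. To compare cells of unequal depth, each cell was thinned at random to 2000 UMIs. The share of gCap cells with Hbegf was then 6.93% (6.24–7.68) in control and 10.7% (9.82–11.7) in metastatic lungs, and that with Pdgfa 3.90% (3.38–4.48) and 7.33% (6.58–8.13). Pdgfb was found in 21.4% (20.3–22.6) and 27.3% (26.0–28.7) and Pdgfd in 4.47% (3.91–5.08) and 4.60% (4.0–5.25). Without thinning the shares were 17.3% and 24.8% for Hbegf, 11.8% and 18.1% for Pdgfa, 47.6% and 57.3% for Pdgfb and 12.9% and 14.1% for Pdgfd. Lymphoid cells were used as the background, on the assumption, not tested here, that they lack these ligands. Among them, 1 of 52 control cells (1.92%) and 0 of 52 metastatic cells held Hbegf after thinning, which allows a share of up to 5.77%, and 1 of 52 in each library held Pdgfb. Neither Pdgfa nor Pdgfd was found in them, with the same limit, and the median lymphoid cell had 4697 and 4606 UMIs against 5951 and 6275 in gCap cells. The interval of the control lymphoid share of Hbegf reached 10.3%, above the gCap share of Hbegf in control lungs. The Pdgfa and Pdgfd shares of gCap cells in control lungs and the Pdgfd share in metastatic lungs also lie under the limit that so few lymphoid cells set, so these 4 shares were not separable from background by this measure.

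Free RNA carried the ligands too. Barcodes with 11 to 50 UMIs, too few for a cell, held Hbegf at 47.2 CPM (32.1–67.0) in control and 39.8 CPM (26.7–57.2) in metastatic lungs. The corresponding levels were 50.3 and 45.3 CPM for Pdgfa, 44.2 and 57.6 CPM for Pdgfb and 12.2 and 10.98 CPM for Pdgfd. The Hbegf and Pdgfa levels there were no higher in the metastatic library. In control lungs they were at or above the gCap level of the same gene, so a part of the low control values in gCap cells could not be separated from free RNA. Subtracting that profile at the lowest share that any of 7 genes of other cells gave (29.9% and 26.3%) put the gCap log2 ratios at 1.41 for Hbegf, 2.43 for Pdgfa, 0.45 for Pdgfb and 0.07 for Pdgfd, an alternative chosen after the data had been seen.

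Among the few cells of other types in the sort, platelets held more Pdgfa per UMI than gCap cells, and the epithelial cells had levels of Hbegf and Pdgfa with wide intervals. In the 15 and 16 platelet barcodes Pdgfa, a known cargo of platelet granules, was at 358 CPM (224.7–542.8) and 250.6 CPM (146.0–401.3), from 22 and 17 UMIs. Hbegf had 0 UMIs in platelets, monocytes or macrophages, neutrophils and B cells of both libraries, but was at 92.3 CPM (42.2–175) and 190 CPM (39.3–557) in the 5 and 1 epithelial cells, from 9 and 3 UMIs. Pdgfa was at 51.3 and 63.5 CPM there, from 5 and 1 UMIs. The summed level of the 4 platelet markers in gCap cells was 175 CPM in control and 271 CPM in metastatic lungs, so it moved with Pdgfa. Mural markers summed to 15.5 and 14.5 CPM and epithelial markers to 8.07 and 4.09 CPM. Among the 3846 control and 3257 metastatic gCap cells with no UMI of any platelet, mural or epithelial marker, the log2 ratios were 1.02 for Hbegf (0.91–1.14), 1.35 for Pdgfa (1.198–1.509), 0.50 for Pdgfb and −0.07 for Pdgfd, close to those over all gCap cells for the first 3. Leaving out only the cells with a platelet marker UMI gave 0.96 for Hbegf (0.85–1.07), below 2-fold, 1.22 for Pdgfa (1.08–1.36), 0.49 for Pdgfb and −0.05 for Pdgfd.

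The cells with most Hbegf were also described as a set. With a limit of 3 Hbegf UMIs after thinning to 2000, chosen after the values had been seen, they numbered 9 of 6849 endothelial cells in control lungs (0.131%, 0.0601–0.249) and 64 of 6169 in metastatic lungs (1.04%, 0.7999–1.323). They held 6.71% and 38.8% of the Hbegf UMIs. By class, the 64 cells were 42 gCap cells, 18 endothelial cells without a class, 2 aerocytes and 2 vein cells. Before thinning their median was 6292 UMIs, compared with 6615 in cells without Hbegf, and the mitochondrial share was 2.38% and 2.70%, so they did not stand out in depth or in that measure of RNA quality. The 41 metastatic cells with 3 or more Pdgfa UMIs fell into 25 gCap cells, 14 cells without a class and 2 aerocytes, and held 38.2% of the Pdgfa UMIs. The control library had 1 such cell.

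Hbegf-rich cells of the metastatic lungs often carried the other ligands and a set of signalling genes. Pdgfa was found in 39.1% of the 64 cells and in 6.09% of the 5580 cells without Hbegf, and Pdgfb in 46.9% and 27.6%. Pdgfd was found in 0 of the 64, which allows a share of up to 4.69%, and in 5.38% of the others. Inhbb, the subunit of activin B, was in 43.8% and 2.37%. Fosl1, an AP-1 transcription factor that growth factor signalling induces, was in 34.4% and 0.305%. The ERK pathway feedback genes differed among themselves, with Spry4 in 45.3% and 8.60% and Dusp5 in 18.8% and 2.1%, but Dusp6 in 4.69% and 19.8%. Furin, a proprotein convertase, was in 35.9% and 13.3%, and the EGFR inhibitor Errfi1 in 26.6% and 9.55%. Adam17, the gene of the main HBEGF sheddase, was found in 0 of the 64, which allows a share of up to 4.69%. Its share in the 5580 cells without Hbegf was 7.42%, so most of those cells held no Adam17 UMI either. These shares come from cells of 1 library and were not tested.

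The same cells kept some endothelial genes and had less of others. Cdh5 was found in 92.2% of the Hbegf-rich cells and 92.7% of the cells without Hbegf, and Cldn5, a tight junction gene, in 93.8% and 93.3%. Calcrl, the adrenomedullin receptor gene, was in 51.6% and 92.5%, and Egfl7 in 54.7% and 89.1%. The capillary markers Lpl and Kit were in 29.7% and 39.1% of the rich cells against 58.0% and 56.7%, the VEGF receptor gene Kdr in 31.3% against 52.2% and its co-receptor Nrp1 in 29.7% against 60.4%. After thinning they carried on average 1.45 of the 4 gCap markers, compared with 2.01 in cells without Hbegf. Lpl and Kit made up most of that difference, and the other gCap markers, Gpihbp1 and Aplnr, together differed little. The class rule asks for 2 markers before thinning, so these means cannot be set against it. The rule left 18 of the 64 cells without a class, and the gCap values above include only the 42 that met it. Melanoma markers were in 0 of the 64 cells, with the same limit of 4.69%. Metastatic gCap cells carried only 0.013 of them on average before thinning, so this 0 says little. Platelet markers were in 18.8% against 12.5% and mural markers in 4 cells, 6.25% against 2.85%.

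**Figure D4:**
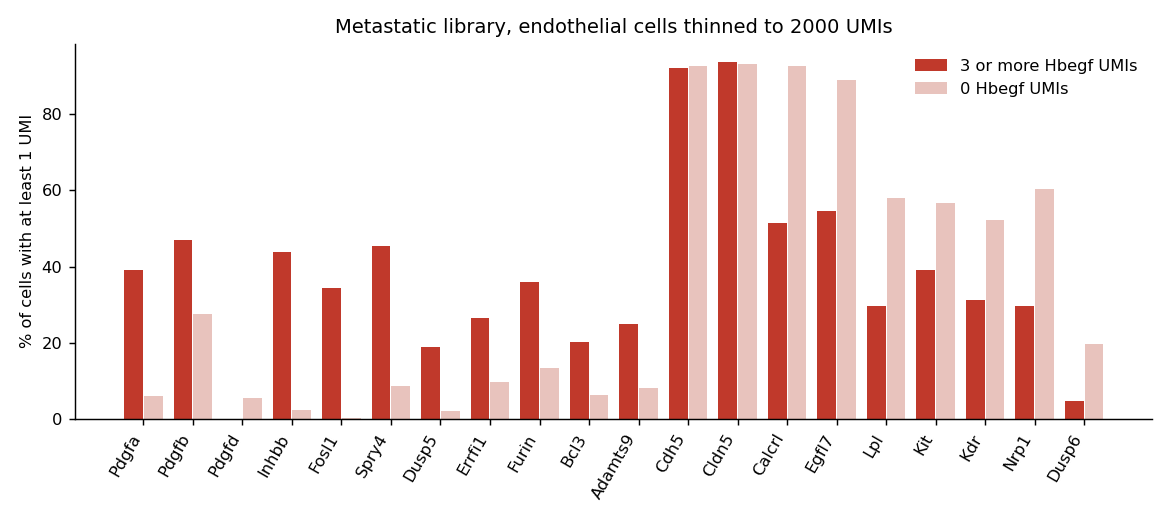
Percent of endothelial cells of the metastatic library with at least 1 UMI of a gene, after thinning to 2000 UMIs, among 64 cells with 3 or more Hbegf UMIs (red) and 5580 cells with none (pale). Inhbb, Fosl1, Spry4 and Pdgfa were frequent in the Hbegf-rich cells, Cdh5 and Cldn5 were alike in both sets, and Calcrl, Egfl7, Lpl and Nrp1 were less frequent in the rich cells.

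Pdgfa-rich cells showed the same genes. Hbegf was found in 70.7% of these 41 cells and in 8.66% of the 5737 cells without Pdgfa, Inhbb in 53.7% and 2.60%, Pdgfb in 63.4% and 27.9% and Fosl1 in 39.02% and 0.366%. Calcrl was in 36.6% of them against 92.4%, and Pdgfd in 0 of 41, which allows up to 7.32%. At a limit of 10 UMIs without thinning, 19 cells of the metastatic lungs were rich in both Hbegf and Pdgfa, which was 44.2% of the 43 Hbegf-rich and 55.9% of the 34 Pdgfa-rich cells. In the cells with 3 or more Pdgfb UMIs, Calcrl was not much less frequent. They numbered 50 and 106 in the libraries, they were mostly gCap cells (69) and aerocytes (28) in metastatic lungs, and Calcrl was found in 88.7% of the 106 against 91.6% of the cells without Pdgfb. Because Pdgfb was more abundant, this limit picked cells with only 15.3% of its UMIs in metastatic lungs. Whether they are another kind of cell was not tested.

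**Figure D5:**
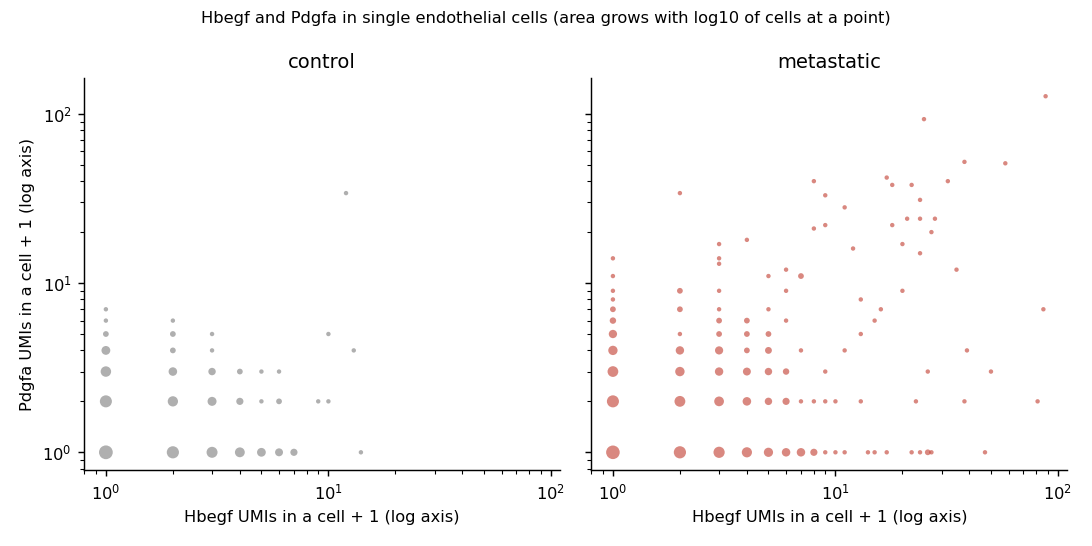
Hbegf against Pdgfa UMIs of single endothelial cells, each with 1 added and on log axes, in the control and the metastatic library, where larger points stand for more cells. Cells rich in both ligands lie at the upper right of the metastatic panel, where 19 cells had at least 10 UMIs of each, and the control panel has 1 such cell.

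Across gCap cells as a whole, thinned to 2000 UMIs, Hbegf, Pdgfa and Pdgfb met in the same cell at about the product of their single shares in control lungs and above it in metastatic lungs, while Pdgfd did not. Whether the libraries differ in this was not tested. Hbegf and Pdgfa were found together in 15 control cells, where the product of the shares gives 13.4, a quotient of 1.12 (0.63–1.85), and in 64 metastatic cells, where it gives 35.0, a quotient of 1.83 (1.41–2.33), and the intervals of these quotients overlap. Hbegf and Inhbb were together in 4 and 40 cells, against 2.98 and 16.7, and Pdgfa and Inhbb in 2 and 33 cells, against 1.68 and 11.4. The largest of these quotients was thus that of Pdgfa with Inhbb in metastatic lungs, at 2.89 (1.99–4.05). Hbegf and Pdgfb met in 74 cells against 73.4 in control and in 174 against 131 in metastatic lungs. Pdgfb also met Bcl3, an NF-kB cofactor, in 128 metastatic cells against 86.6, and the kinase gene Pim3 in both libraries, in 391 cells against 336.0 and 483 against 392.4. Pdgfd stayed near the product with each of the other members, with quotients between 0.60 and 1.17 and intervals that all include 1.

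Genes of the same pathways were examined from lists of receptors, proteases and targets. Hbegf was the only one of 11 EGF-family ligands with 50 UMIs in gCap cells. Areg had 28 and 9 UMIs and Tgfa 14 and 10. Among the 4 ErbB receptors only Erbb2 had enough, at 11.1 and 10.5 CPM (log2 ratio −0.08, −0.30 to 0.14), whereas Egfr had 11 and 10 UMIs and Erbb4 none, at a limit of 3 UMIs. The gCap cells therefore held Hbegf RNA with hardly any RNA of the receptors it binds. Pdgfc, the remaining PDGF ligand, had 6 and 4 UMIs. Of the PDGF receptors, Pdgfra was at 2.24 and 2.34 CPM and Pdgfrb at 4.83 and 4.56 CPM, both level between the libraries within intervals that reach 0.56. In aerocytes both were higher in the metastatic library, Pdgfra at 7.33 and 10.3 CPM (log2 ratio 0.50, 0.06–0.94) and Pdgfrb at 3.18 and 6.18 CPM (0.96, 0.33–1.60). Nrp1 was at 331 and 484 CPM, a log2 ratio of 0.55 (0.51–0.58), although it was less frequent in the Hbegf-rich cells.

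Of 15 genes for the release and processing of the ligands, 10 had enough UMIs in gCap cells, and their median log2 ratio was 0.05, next to 0.02 for all genes. The interval lay above 0 in 5 of the 10 and below 0 in 1, where it did so for 23.8% and 15.7% of all genes, and none passed 2-fold, as 1.27% of all genes did upwards. Adam17, the main HBEGF sheddase, was at 38.1 and 42.7 CPM, a log2 ratio of 0.17 (0.05–0.28). Its regulators Rhbdf1 and Rhbdf2 had ratios of 0.54 (0.34–0.73) and 0.31 (0.14–0.48) and Furin 0.20 (0.12–0.28). Plat, the tissue plasminogen activator that cuts PDGF-C, was the gene below 0, at −0.13 (−0.23 to −0.02). Adam10 (0.04) and Cd9 (0.03), a partner of the HBEGF precursor, were near level, though the interval of Cd9 lay above 0. The differences in this list were thus small beside those of Hbegf and Pdgfa.

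The list of feedback and target genes of receptor tyrosine kinases had 15 of 17 members with enough UMIs and a median log2 ratio of 0.05. The interval lay above 0 in 6 of the 15 and below 0 in 2, beside 23.8% and 15.7% of all genes. Veins went the other way, with 2 of 12 above 0, 5 below and a median of −0.26, beside 10% and 8.41% of all vein genes. Fosl1 had 9 and 126 UMIs, 0.280 and 4.16 CPM, a log2 ratio of 3.89 (2.92–5.05), and Phlda1 18.3 and 37.2 CPM, a ratio of 1.03 (0.88–1.17). Dusp5 (0.66), Spry4 (0.54), Egr3 (0.52) and Ier3 (0.12) were also higher. Spry1 was at 111 and 77.1 CPM, a ratio of −0.53 (−0.60 to −0.45), and Dusp6 at −0.14, so the feedback genes did not move as 1 group. The list of 7 reactive capillary genes, which the study picked from data that include these libraries, had all 7 above 0, beside 23.8% of all genes, a median of 0.37 and 2 past 2-fold, beside 1.27%. These were Inhbb at 2.64 (2.40–2.88) and Bcl3 at 1.44 (1.29–1.59). In veins 1 of 6 was above 0 and 3 below, with a median of −0.28, and in arteries 0 of 4 were above and 2 below, with a median of −0.55, beside 7.77% and 6.61% of all artery genes.

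The genes most like each ligand were ranked by Pearson's r of log2(CPM + 1) over the 8 sums of 4 classes and 2 libraries, among 7744 genes. The sums share libraries and depth, so r is a description. For Hbegf these were Diaph1 (0.98), Sav1, Prkar2b, Sms and Upp1 (0.96), and for Pdgfa Odc1 (0.97), the rate-limiting enzyme of polyamine synthesis, then Isg20 (0.91), Bms1, Stat2 and Tal1. Odc1 was at 40.6 and 70.1 CPM in gCap cells and at 51.2 and 49.7 CPM in veins, and so had both features of Pdgfa. Pdgfb was followed by Galnt1, Impdh1, Rell1, Pkn2 and Msantd3 (0.98 to 0.99), which were highest in aerocytes of both libraries, and Pdgfd by Ccdc127, Iars, Shoc2, Psma1 and Gopc (0.96 to 0.99).

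Within gCap cells thinned to 2000 UMIs, each ligand was also described by the 8 genes with the highest level in cells with a UMI of it relative to cells without. Beside Pdgfa these included the platelet genes Pf4, Ppbp and Clec1b and the alveolar genes Sftpc and Sftpa1. Pf4 was at 176 CPM in control cells with Pdgfa and 100.0 in those without, and at 297 and 132 CPM in metastatic lungs, and Sftpc at 2294 and 493 CPM and at 609 and 347 CPM. The Pdgfa ratio between the libraries without the cells with platelet markers, 1.22, is given above, and the part of the alveolar genes was not tested. Beside Pdgfb stood Tcim, Pim3, Slc6a6, Flot1, Tmem252, Armcx4, Scn3b and Sgk1, with Pim3 at 301 and 219 CPM in control and 348 and 226 CPM in metastatic lungs. Beside Pdgfd, Fabp4, a fatty acid carrier of capillary endothelium, was at 491 and 62.2 CPM in control and 578 and 164 CPM in metastatic lungs, followed by Alg14, Slc39a10, Commd4, Arhgap20, Rhot1, Atp8b1 and Smim26 at smaller ratios. Beside Hbegf stood Dnajb4, Gm26532, Sftpa1, Plat, Nfkbiz, Fxr2, Cited2 and Pde12. The genes were ranked on these values, and for Hbegf, Pdgfa and Pdgfd the median of the 8 fell when cells were thinned to 4000 UMIs, from 0.52 to 0.16, from 0.80 to 0.24 and from 0.55 to 0.09, whereas that of Pdgfb was 0.33 and 0.34.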

How the data were processed

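PECAM1-positive lung cells were profiled with 10x Genomics 3′ chemistry. The authors aligned the reads to mm10 with Cell Ranger (3.1.0 in the file headers) and deposited unfiltered matrices of raw UMI counts per gene and barcode. The study's Seurat steps are not in these values.

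The 4 members and all lists were chosen with earlier results of these data known. Cells were filtered as in the study's methods (1000 to 5000 genes, under 20% mitochondrial UMIs). Doublets were left in. An alternative left out the 5.71% and 5.17% of cells with the most simulated-doublet neighbours. Classes needed 2 markers (aerocyte Ednrb, Fibin, Tbx2; vein Slc6a2, Car8, Bst1; artery Gja5, Bmx, Fbln5; gCap Gpihbp1, Aplnr, Kit, Lpl and no other class). UMI sums per class were scaled to CPM, with exact Poisson intervals for levels, exact conditional binomial intervals for ratios and Clopper-Pearson intervals for shares, all at 95% and for counting error only. Genes with 50 UMIs over both libraries were compared. A count of 0 was given a limit of 3 counts. The genes named are the members, the listed genes, the 5 genes most like each member (20 CPM in at least 1 sum) and the 8 genes highest beside it (50 CPM and 20 UMIs). The ratios, their intervals and the thinning were tested on simulated data, and the classes were not. Nrdc was found as Nrd1 by its synonym. Alternatives used TMM (edgeR 4.0.16) and median-of-ratios scaling, other cell filters and class rules. Python 3.11.15, numpy 2.4.6 and scipy 1.17.1 were used.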

Additional observations from a re-analysis of the deposited data

How the results depend on the processing

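No paired analysis was possible because each group holds 1 library, and for the same reason no replicate could be left out. Of 194 recomputed log2 ratios of the members in the 4 classes, 175 stayed within the counting interval of the reported ratio. The sign differed from the reported one in 8, of which 1, aerocyte Pdgfb, was a ratio that had differed from 0 beyond counting error, and the others were Pdgfd ratios and artery Hbegf. Asking for 3 class markers put gCap Hbegf at 0.78 and Pdgfa at 1.03, vein Hbegf at 1.35 and Pdgfb at 0.96, and artery Hbegf, Pdgfa and Pdgfb at 1.87, 2.65 and 1.91, from very few cells. Thinning to 2000 UMIs put gCap Hbegf at 0.93, vein Pdgfa at −0.95 and, with a change of sign, aerocyte Pdgfd at 0.39 and artery Hbegf at −1.23. Subtracting free RNA was not possible in gCap cells and veins, where the share came out above 100% in 1 library (133% and 153%). In aerocytes the shares were uncertain and unequal, at 68.6% in control and 27.4% in metastatic lungs. There the subtraction left no Hbegf or Pdgfa in the control, and it put Pdgfb at −0.16 and Pdgfd at −0.47. The alternatives added after the data had been seen moved gCap Hbegf to 1.41 and Pdgfa to 2.43 (free RNA at the lowest share), Hbegf to 0.80 and Pdgfa to 0.87 (without the richest 1% of cells), and Hbegf to 1.25 and Pdgfb to 0.41 (all endothelial cells). Leaving out cells with platelet markers put gCap Hbegf at 0.96, below 2-fold, and leaving out cells with monocyte or macrophage markers put vein Pdgfb at 0.40, then above 0. The cause of these shifts was not tested. Shares of gCap cells with a UMI followed the depth, as thinning sets them. At 1000 UMIs they were 3.67% and 6.13% for Hbegf, 2.25% and 3.78% for Pdgfa, 12.0% and 15.2% for Pdgfb and 2.45% and 2.30% for Pdgfd in control and metastatic lungs, and unthinned 17.3% and 24.8%, 11.8% and 18.1%, 47.6% and 57.3%, and 12.9% and 14.1%. TMM and median-of-ratios scaling shifted all gCap genes by 0.02 and 0.03. They moved no ratio outside its counting interval, but artery Pdgfb, at 0.52 and 0.55, no longer differed from 0 beyond counting error, and gCap Hbegf came to 0.99 under median-of-ratios scaling, below 2-fold. The same artery ratio also lost its call with a minimum of 1500 genes (0.53) and thinned (0.58), as did thinned aerocyte and vein Hbegf (0.40 and 0.65), with fewer UMIs.

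Arteries had 63 and 59 cells, too few to bound any of these ratios closely.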
